A study of Mus musculus with 4 samples.

Results

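The 9 stellate cell and matrix genes described here, Acta2, Des, Col1a1, Col1a2, Col3a1, Timp1, Lox, Tgfb1 and Spp1, are genes whose transcripts are commonly read as markers of liver fibrosis. They were looked up among the non-control probes by the gene symbol that the description holds in brackets or by the RefSeq accession. These matched 6 of the 9, Acta2, Col1a2, Timp1, Lox, Tgfb1 and Spp1. The other 3, Des, Col1a1 and Col3a1, had a probe named only by the plain words of its description, and their values are given as such. Each of the 9 was stood for by 1 probe, and all 9 were among the 20077 genes tested. That count takes each of 10733 unnamed probes as a gene.

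Liver was taken from male mice of a polygenic obese line on day 14 of feeding. The CLA group ate trans-10, cis-12 conjugated linoleic acid (CLA), a fatty acid isomer known to lower body fat in mice, at 1% of the diet, and the control group ate linoleic acid at 1%. No genetic change, other agent or age is named in the labels, and both groups share the obese background. Each of 4 two-colour Agilent arrays set total RNA of 1 CLA pool against 1 control pool, each of 4 or 5 mice, so the values say nothing of single animals. On arrays 1 and 2 the CLA pool carried Cy5, the red dye, and on arrays 3 and 4 it carried Cy3, the green one. Which arrays share a pool is not stated, so a p-value here reflects the spread among these arrays alone, and that spread may be technical.

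Hepatic stellate cells lie between the hepatocytes and the sinusoidal endothelium and store vitamin A while quiescent. After liver injury they can turn into contractile myofibroblasts that make smooth muscle actin and fibrillar collagen, a change driven by transforming growth factor beta and platelet-derived growth factor. Enzymes such as lysyl oxidase then crosslink the collagen, and inhibitors of the matrix metalloproteinases slow its removal. In bulk liver RNA, fewer cells of a type and less RNA per cell cannot be told apart.

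Some features of the whole set of arrays touch every value below. Between 80.3% and 95.8% of non-control spots were well above background per array and channel. As measured, log2 CLA over control correlated at r = 0.56 between arrays 1 and 2 and at r = 0.81 between arrays 3 and 4, but at -0.45 to -0.72 between the orientations, across genes that are not independent. A dye effect per gene, the mean log2 Cy5 over Cy3, was therefore fitted beside the diet effect. Each array's slope on the mean dye profile was 0.78, 0.73, 1.18 and 1.31, so the profile stood larger on arrays 3 and 4. The fitted diet and dye effects correlated at r = -0.52 over all genes. A dye effect of unequal size and a diet effect that follows the dye cannot be told apart here. Equalising brought the dye effect to 1 size on all arrays, which takes out the part of the diet effect that follows it. The correlation of 0.01 after equalising was therefore set by the method. Values after this equalising are given beside each member. The hepatocyte markers tested, 7 of 10 listed, were all well above background in both diets on all 4 arrays.

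None of the 9 genes passed the test, limma's moderated test with the adjusted p over all genes below 0.05. Over all genes, 0.0697% were called, 0.0349% as higher and 0.0349% as lower. The 9 diet effects, as log2 CLA minus control, ran from -0.14 for Lox to 0.39 for Acta2, with a median of 0.11 against a median of 0.0058 over all genes. They were above 0 in 8 of 9 members and in 52.2% of all genes. An unadjusted p under 0.05 was found for 3 of 9, Acta2, Col1a2 and Lox, against 15.9% of all genes. With the dye effect equalised the median was 0.10 and 6 of 9 were above 0, against 0.00076 and 50.3% over all genes. In that equalised fit 1 of 9, Col1a1, had an unadjusted p under 0.05, against 9.44% of all genes. In the fit as reported, the upper end of the 95% interval lay at 1.5-fold for Acta2 and at no more than 1.30-fold for the other 8. These ends are no ceiling, as the offset of 50 added to each intensity draws the ratio of a dim probe toward no change. The member median was 0.19 with an offset of 16 and 0.23 with the scanner's processed signals. Those signals gave 0.40 for Timp1, 0.27 for Des and -0.33 for Lox, while Acta2 at 0.40 and Spp1 at 0.01 hardly moved.

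**Figure D1:**
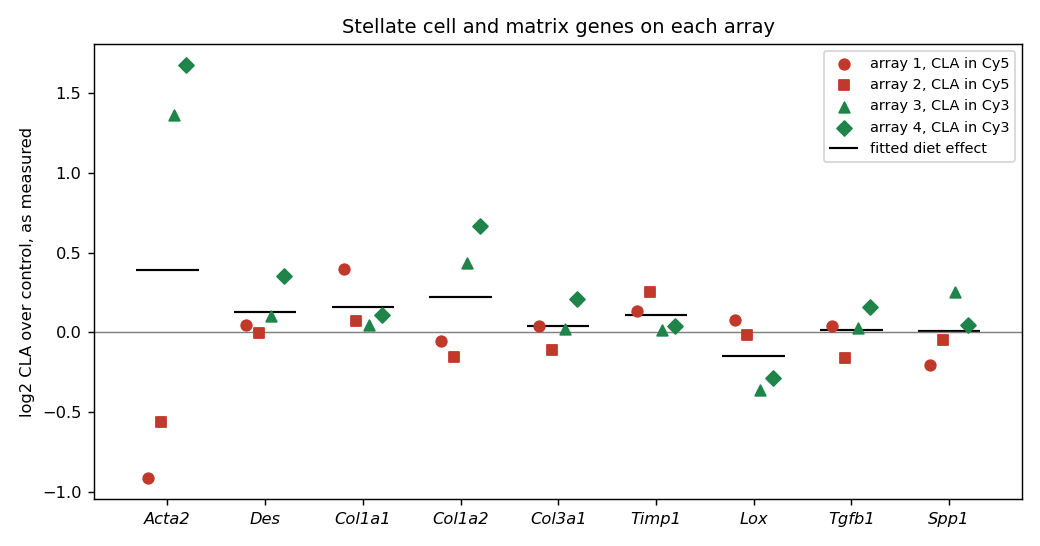
Log2 CLA over control as measured on each of the 4 arrays (points; red, CLA in Cy5; green, CLA in Cy3) for the 9 genes, with the fitted diet effect as a bar. Acta2 lies below 0 on both Cy5 arrays and at 1.36 and 1.68 on the Cy3 arrays, while only Col1a1 and Timp1 lie above 0 on every array.

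The contractile genes come first. Acta2 (NM_007392) encodes the smooth muscle actin by which myofibroblasts are usually recognised. Its log2 CLA over control was -0.91, -0.56, 1.36 and 1.68 on arrays 1 to 4. The arrays with CLA in Cy5 were both below 0 and those with CLA in Cy3 both far above it, without overlap. This is the largest dye effect of the 9, -1.13 on the log2 scale. With the gene's dye effect taken out, the values were 0.22, 0.57, 0.23 and 0.55, which the fit ties to the same mean in both orientations. The diet effect was 0.39 ± 0.08 (SE), or 1.31-fold with a 95% interval of 1.15 to 1.5, with an adjusted p of 0.118. A higher diet effect was found for 0.852% of all genes. With the dye effect equalised it was 0.12 ± 0.07 (adjusted p = 0.578), and it was 0.16 with median centring in place of loess and 0.17 with scale normalization.

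The Acta2 probe may also bind other actins, whose transcripts are close to it in sequence. Actg2, the gamma actin of enteric smooth muscle, chosen here after its values were seen, had a like pattern of -0.67, -0.74, 1.37 and 1.23, with a diet effect of 0.30 ± 0.06 and a dye effect of -1.0. Its diet effect was 0.05 with the dye effect equalised. Whether the probes measured 1 transcript or both was not tested.

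The promoter of Acta2 is printed because this gene had the highest estimate and its transcription in smooth muscle is known to depend on serum response factor, which binds the CArG box. The bases run 5′ to 3′ up to the base before the transcription start site, on the minus strand of GRCm38.p6, chr19:34255374-34255623, from RefSeq. Capitals mark the places where CC, 6 bases with at most 1 G or C, and GG follow each other, a CArG-like pattern.
Acta2: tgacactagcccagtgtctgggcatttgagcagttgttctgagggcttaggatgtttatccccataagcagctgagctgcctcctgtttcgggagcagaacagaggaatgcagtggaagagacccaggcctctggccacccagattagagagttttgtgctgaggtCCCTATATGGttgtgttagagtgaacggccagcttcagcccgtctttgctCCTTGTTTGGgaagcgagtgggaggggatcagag
The strict CArG box, with only A or T between CC and GG, was not among these letters, and the wider pattern was taken up after that was seen. The wider pattern begins 84 and 34 bases before the start site. It occurs in 8.59% of all 32851 promoter windows of 250 bases, and at 2 or more places in 0.67% of them, while the strict box occurs in 1.47%. Both patterns read the same on either strand. A match is only a description of the letters.

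Des (probe described as mouse desmin, L22550) encodes the intermediate filament of muscle that also marks rodent stellate cells. Its values were 0.05, -0.0030, 0.11 and 0.35, so 3 of 4 arrays were above 0, array 4 most. Its diet effect was 0.13 ± 0.07 (adjusted p = 0.372) with a dye effect of -0.10. Equalising the dye effect gave 0.10, leaving out array 4 gave 0.06, and no background subtraction gave 0.04. With the scanner's processed signals it was 0.27. The 95% interval of the diet effect, -0.02 to 0.28, included 0.

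The fibrillar collagens were next. Col1a2 (NM_007743) encodes the alpha 2 chain of type I collagen, the main collagen of scar. Its values were -0.06, -0.15, 0.43 and 0.67, below 0 on both arrays with CLA in Cy5 and above 0 on both with CLA in Cy3. For Col1a2 the diet effect was 0.22 ± 0.07, or 1.17-fold (1.05 to 1.30), with an adjusted p of 0.189, and the dye effect was -0.33. With the dye effect equalised it was 0.14 ± 0.06 (adjusted p = 0.528). It was 0.10 with no background subtraction and 0.11 with median centring.

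Col1a1 (described probe, U08020) encodes the partner alpha 1 chain of the same type I collagen. Its values were 0.40, 0.07, 0.05 and 0.11, above 0 on every array, with array 1 standing higher than the other 3. For Col1a1 the diet effect was 0.16 ± 0.07, or 1.12-fold (0.996 to 1.25), with an adjusted p of 0.325. Without array 1 it was 0.08, without array 2 it was 0.24, and with no background subtraction it was 0.05. The dye effect was small, 0.08, and equalising it gave 0.18 ± 0.07 (adjusted p = 0.526). Both chains of type I collagen thus had estimates above 0, and neither passed the test.

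Col3a1 (AK041115, described as a homolog of the type III collagen chain) encodes the collagen that accompanies type I in early scar. Its values were 0.04, -0.11, 0.02 and 0.21, on both sides of 0. The diet effect was 0.04 ± 0.06 (adjusted p = 0.776), and its 95% interval reached from 0.927-fold to 1.14-fold. It was 0.02 with the dye effect equalised, -0.16 with median centring and -0.0084 without array 4.

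The promoter of Col1a2 is printed as that of the collagen with the highest estimate. It lies on the plus strand of GRCm38.p6 at chr6:4505368-4505617, from RefSeq, again 5′ to 3′ up to the base before the start site. Capitals mark the CCAAT box, a common promoter element searched as CCAAT on both strands.
Col1a2: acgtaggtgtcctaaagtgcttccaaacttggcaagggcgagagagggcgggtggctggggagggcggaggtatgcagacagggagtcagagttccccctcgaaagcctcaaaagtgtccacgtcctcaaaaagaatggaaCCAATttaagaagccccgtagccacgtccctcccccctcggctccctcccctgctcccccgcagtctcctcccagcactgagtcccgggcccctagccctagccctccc
The box begins 109 bases before the start site and occurs in 33.8% of all windows. The CArG-like pattern of the Acta2 window was also found here once, beginning 228 bases before the start site and overlapping no other motif. Among the other 5 members with a window, Des, Col3a1, Timp1, Tgfb1 and Spp1, none held the CArG-like pattern in these letters. The letters of a TATA box were searched as TATAAA on both strands. They began 117 bases before the start site for Col3a1. For Spp1 they were found once over its 2 windows, beginning 211 bases before the start site. They were in 12.4% of all windows and in neither printed window.

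**Figure D2:**
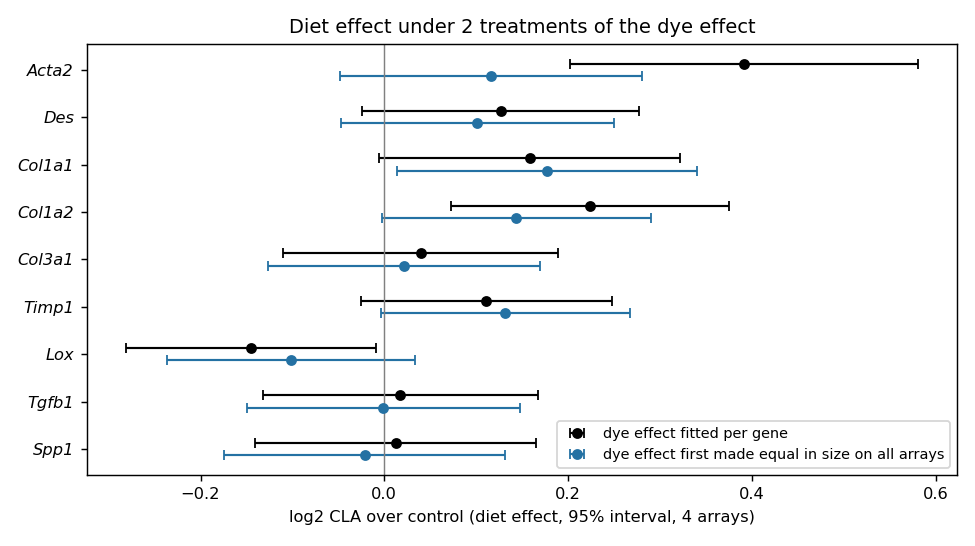
Diet effect of each gene (log2 CLA over control, point) with its 95% interval over 4 arrays, with the dye effect fitted per gene (black) and after the dye effect was made equal in size on all arrays (blue). Acta2 goes from 0.39 to 0.12, and the blue interval lies wholly above 0 for Col1a1 alone.

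The remodelling genes pointed to different sides. Timp1 (NM_011593) encodes an inhibitor of matrix metalloproteinases that fibrotic liver is known to make in quantity. Its values were 0.14, 0.25, 0.01 and 0.04, above 0 on every array and higher on the arrays with CLA in Cy5. The diet effect was 0.11 ± 0.06, or 1.08-fold (0.983 to 1.19), with an adjusted p of 0.380, and the dye effect was 0.08. Equalising it gave 0.13. This was the dimmest of the probes against its own background, well above it in the CLA channel on 3 of 4 arrays and in the control channel on 2 of 4. Its estimate differed between ways of processing. It was 0.03 with no background subtraction, 0.21 with an offset of 16 and 0.28 with median centring. With the scanner's processed signals the arrays read 0.76, 0.77, 0.02 and 0.07, and the diet effect was 0.40 ± 0.08 (adjusted p = 0.347).

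Lox (NM_010728) encodes lysyl oxidase, which crosslinks collagen and elastin. Its values were 0.08, -0.01, -0.36 and -0.29, near 0 with CLA in Cy5 and below it with CLA in Cy3, with no overlap. The diet effect was -0.14 ± 0.06, or 0.905-fold (0.823 to 0.994), the only one of the 9 below 0, with an adjusted p of 0.290. The dye effect was 0.18, and equalising it gave -0.10 (adjusted p = 0.562). The scanner's processed signals gave -0.33, and no background subtraction gave -0.04. Collagen estimates above 0 and a crosslinking enzyme below 0 therefore stood side by side, and none of them passed the test.

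The signal and the matrix ligand were close to 0. Tgfb1 (NM_011577) encodes the growth factor that drives stellate cells to make matrix, and its activity is known to be set largely by release of the stored protein. Its values were 0.04, -0.16, 0.03 and 0.16, with a diet effect of 0.02 ± 0.06 (adjusted p = 0.910), and of -0.00087 with the dye effect equalised. Spp1 (NM_009263) encodes osteopontin, a secreted integrin and CD44 ligand made in liver by bile duct cells, macrophages and activated stellate cells. Its values were -0.21, -0.05, 0.26 and 0.05, below 0 on both arrays with CLA in Cy5 and above on both with CLA in Cy3. Its diet effect was 0.01 ± 0.07 (adjusted p = 0.943), and -0.02 with the dye effect equalised. In the fit as reported, the 95% intervals reached 1.12-fold at the upper end for each. The scanner's processed signals gave 0.10 ± 0.13 for Tgfb1 and 0.01 ± 0.09 for Spp1.

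**Figure D3:**
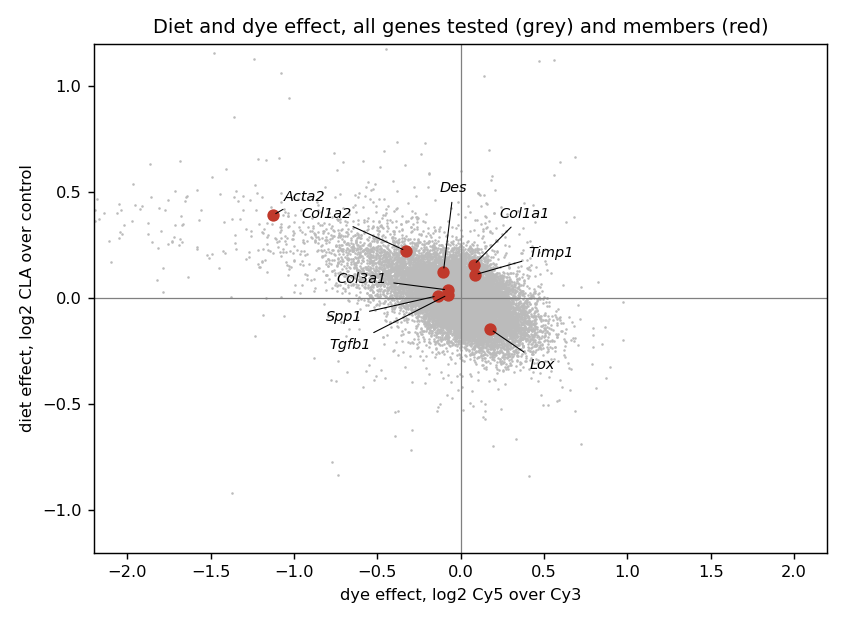
Fitted diet effect (log2 CLA over control) against fitted dye effect (log2 Cy5 over Cy3) for all 20077 genes tested (grey, 37 genes beyond the axes not drawn) and the 9 members (red, joined to their names). Acta2, at a dye effect of -1.13, lies within the arm of positive diet effects that genes with a strong negative dye effect form on the left.

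Diet and dye effects tended to opposite directions, though Col1a1 and Timp1 had both above 0. Over the 9 members they correlated at r = -0.81, a description over genes that share the same 4 arrays. This value leans on Acta2, whose dye effect of -1.13 lay far from the next, -0.33 for Col1a2. Acta2 and Col1a2, first and second in diet effect, had the most negative dye effects, and Lox, the lowest, had the most positive. The part of the dye in these values was not tested, and equalising cannot tell it from a diet effect that follows the dye. In the equalised fit the members ran from -0.10 to 0.18 and Col1a1 was highest. As measured, 2 of 9 members, Col1a1 and Timp1, had the same sign on all 4 arrays, against 9.31% of the 19826 genes measured on all of them.

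By role, the contractile pair had a median diet effect of 0.26, the 3 collagens of 0.16, the remodelling pair of -0.02, and Tgfb1 with Spp1 of 0.01. With the dye effect equalised these medians were 0.11, 0.14, 0.02 and -0.01. The collagen median then stood above that of the contractile pair, with the intervals of all 5 genes overlapping. Differences between members were not tested.

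Other genes of the same processes were read from 7 lists, of contractile proteins, collagens, matrix glycoproteins, collagen processing, matrix proteases with their inhibitors, growth factor signalling, and receptors. Of 130 listed genes, the members included, 119 were tested, 24 of them by description alone. None rose and none fell by the test, and the lowest adjusted p was 0.106, for Vtn. An unadjusted p under 0.05 was found for 16 higher and 10 lower genes, or 21.8% of those tested, against 15.9% of all genes, 8.75% higher and 7.17% lower. Of the 119 tested, 10 were above 0 and 9 below 0 on every array as measured. For the 19826 genes measured on all 4 arrays the shares were 4.58% and 4.72%. With the dye effect equalised, 10.9% of the 119 had an unadjusted p under 0.05, against 9.44% of all genes. The list genes had a median diet effect of 0.03 and 61.3% were above 0, against 0.0058 and 52.2% over all genes. Each count above 0 in the lists below stands against that same 52.2%.

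The contractile list had the highest median of the 7, 0.13, with 10 of 12 genes above 0. Cald1, the actin-binding caldesmon, was above 0 on every array at 0.13, 0.49, 0.05 and 0.10, with a diet effect of 0.19 ± 0.07 (adjusted p = 0.274). Tpm1, a tropomyosin, was also above 0 on every array, with 0.14 ± 0.07 (adjusted p = 0.352). S100a6, a calcium-binding protein, was at -0.04, but its second probe gave 0.10, so its direction is unsettled.

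Among 17 collagens, 12 were above 0 and the median was 0.04. Col6a1, a chain of the microfibrillar type VI collagen, was below 0 on every array with a diet effect of -0.15 ± 0.06 (adjusted p = 0.301). Its partner Col6a3 had 2 probes that disagreed. The brighter gave 0.14 ± 0.07, above 0 on every array, and the other gave -0.18 ± 0.06, below 0 on every array.

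The matrix glycoproteins and proteoglycans had 12 of 26 genes above 0 and a median of -0.02. Vtn, vitronectin, an adhesive plasma protein that hepatocytes secrete, had the lowest adjusted p of all 119. Its values were -0.33, -0.23, -0.29 and -0.34, below 0 on every array with no gap between the orientations. The diet effect was -0.30 ± 0.06 with a dye effect of 0.02, and equalising the dye left it at -0.29. Median centring gave -0.58 ± 0.11 with an adjusted p of 0.0107. Fbln2, a fibulin of elastic fibres and portal fibroblasts, was at 0.14 ± 0.06 (adjusted p = 0.326) and Fbln1 at -0.05 ± 0.06.

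**Figure D4:**
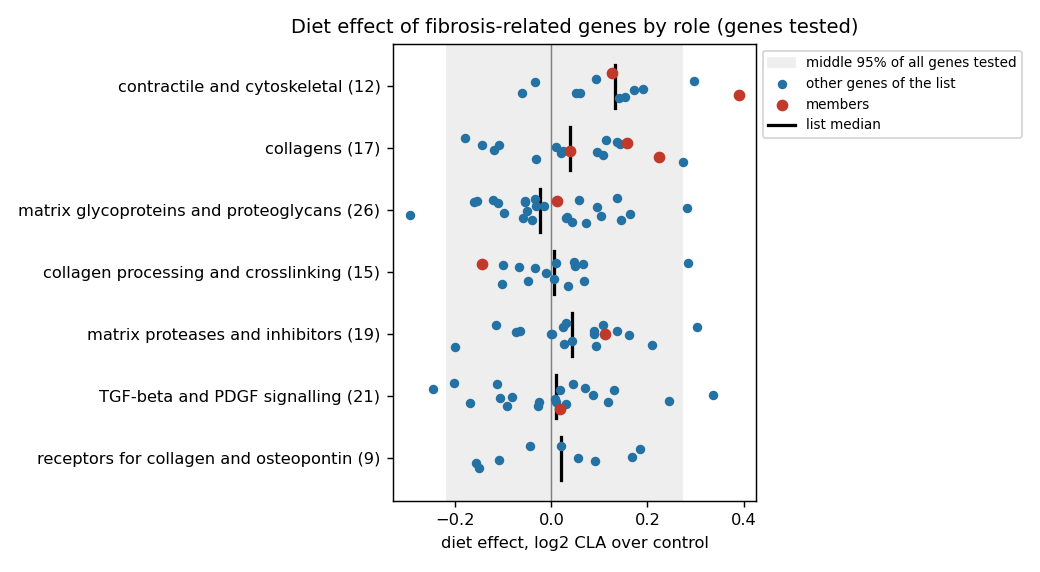
Diet effect (log2 CLA over control) of each tested gene in 7 lists of fibrosis-related genes, with the number tested in brackets, list medians as black bars, members in red and other genes in blue; the grey band spans the middle 95% of all genes tested. The list medians lie between -0.02 and 0.13, and Acta2 is the point farthest to the right.

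Collagen processing had 8 of 15 genes above 0 and a median of 0.00, and Loxl2, a relative of Lox, was at -0.10 ± 0.06. The proteases and inhibitors had 14 of 19 above 0 and a median of 0.04. Mmp13, the collagenase of rodents, was at 0.14 ± 0.07 and Mmp19 at -0.07 ± 0.06, each with 1 sign on all arrays.

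Growth factor signalling had 12 of 21 genes above 0 and a median of 0.01. Ccn2, a matricellular protein induced by transforming growth factor beta, was at 0.13 ± 0.07 (adjusted p = 0.368), its array values running from 0.0082 to 0.39. Inhba, the activin A subunit, was at -0.20 ± 0.06 (adjusted p = 0.197). Tgfb2 was at -0.25 ± 0.06 (adjusted p = 0.169), and both were below 0 on every array. Of the 9 receptors, 5 were above 0, among them Cd44, a receptor for osteopontin and hyaluronan, at 0.17 ± 0.07, while the collagen receptor Itga2 was at -0.15 ± 0.06.

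Markers of the cells that could carry these transcripts were read beside them. Of 11 quiescent stellate cell markers tested, all well above background in both diets on every array, none was called, 6 were above 0 and the median was 0.02. Reln, reelin, was below 0 on every array at -0.21, -0.15, -0.20 and -0.19, with a diet effect of -0.19 ± 0.06 (adjusted p = 0.199). Of 10 markers of portal fibroblasts and smooth muscle, none was called, 9 were above 0 and the median was 0.10, with array medians of 0.01, -0.02, 0.17 and 0.21. Tagln, Cnn1 and Myh11 are also in the contractile list, and Eln and Fbln2 in that of matrix glycoproteins. This count is therefore in part a recount of those lists. The summed intensity of the 10 markers ran from 3546 to 5318 in the CLA channel and from 3271 to 4844 in the control channel. The list median was higher on both arrays with CLA in Cy3, as Acta2 was, though arrays 1 and 2 stood in the opposite order. Its part in the Acta2 value was not tested. The median was 0.04 with the dye effect equalised.

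Of 6 adipocyte and mesothelium markers, 5 were above 0, with array medians of -0.17, -0.09, 0.34 and 0.27, again higher with CLA in Cy3, and summed intensities of 1040 to 2226 in the CLA channel and 1062 to 1721 in the control channel. Among the cells that also make Spp1, 7 of 9 bile duct markers were above 0 with a median of 0.09, and array medians of -0.03, 0.03, 0.13 and 0.24. For Kupffer cells and macrophages 8 of 12 were above 0 with a median of 0.05, and array medians of -0.10, -0.23, 0.04 and 0.28. The medians were -0.03 over 8 endothelial, 0.04 over 12 lymphocyte and neutrophil, -0.0094 over 7 hepatocyte and -0.24 over 3 blood markers. None of these markers was called, and their part in the member values was not tested.

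Array 4, where Acta2, Des, Col1a2, Col3a1 and Tgfb1 were each at their highest as measured, also stood apart in exocrine pancreas markers. Of these, 11 of 11 tested had diet effects above 0, with array medians of 0.08, 0.10, -0.08 and 1.36, and their summed intensity ran from 2187 to 5306 in the CLA channel and from 2050 to 2821 in the control channel. None was called. Without array 4, Acta2 was at 0.31, Des at 0.06, Col1a2 at 0.16 and the member median at 0.06. Array 4 was not alone in this, as Acta2 was at 0.30 without array 2. It was at 0.48 without array 1 and 0.47 without array 3. The member median was 0.08 without array 1, 0.08 without array 2 and 0.12 without array 3. With its dye effect taken out, Acta2 stood at 0.57 on array 2 and 0.55 on array 4. The part of array 4's tissue makeup in the other values was not tested.

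The authors' deposited table, of liver genes they call significant, lists 775 probes, 3.71% of those on the array, and none of the member probes. It lists 4 of the 125 probes of the 7 lists, or 3.2%. In the authors' deposited table, the second Col6a3 probe has a signed fold of -1.86, Itga2 -1.49, Vtn -1.26 and Bgn, biglycan, 1.48. Bgn read -0.34, 0.39, 0.56 and 0.51 on the arrays, with a diet effect of 0.28 ± 0.11 (adjusted p = 0.272 by limma). The table does not say which diet its ratio sets over which. Read as CLA over control, it had the same direction as the fit for all 4 probes. Sizes, which are folds in the table and log2 values in the fit, did not always match. For the second Col6a3 probe the table's ratio was 0.539 and the diet effect -0.18. With the scanner's processed signals that diet effect was -0.67 ± 0.14. The table describes liver arrays of this same series and holds only genes called significant, so the shared direction is no independent support.

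**Figure D5:**
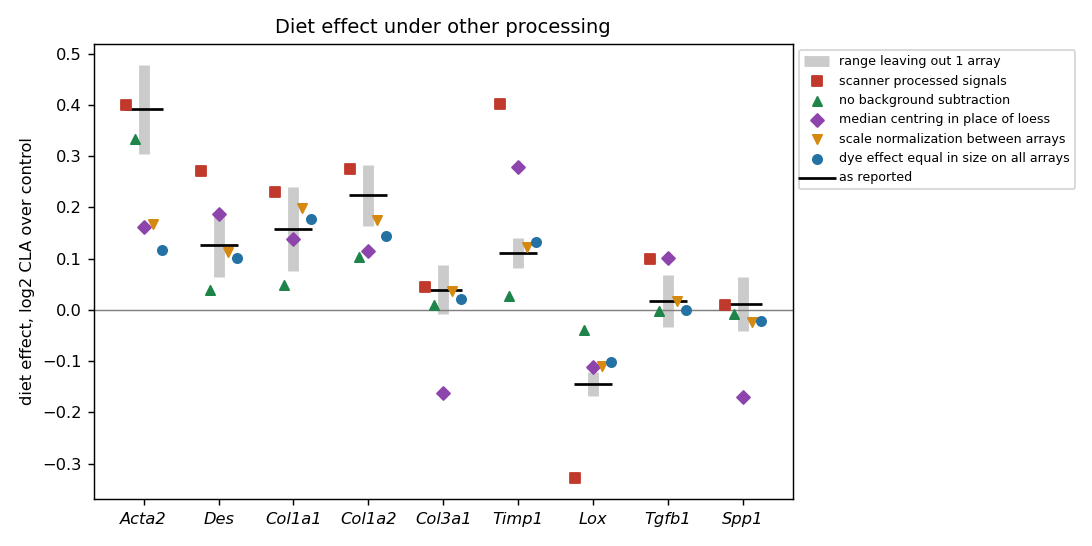
Diet effect (log2 CLA over control) of each gene as reported (black bar), under 5 other ways of processing (coloured symbols), and the range when 1 array at a time was left out (grey). Acta2 stays above 0 but drops to 0.12 when the dye effect is equalised, Timp1 reaches 0.40 with the scanner's processed signals, and Col3a1, Tgfb1 and Spp1 cross 0.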

How the data were processed

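Total RNA of liver pools was labelled directly and hybridised to 4 two-colour arrays, per the labels. The scanner files, per the file headers, come from Agilent Feature Extraction A.6.1.1 and hold mean foreground and median background intensity, processed intensity, and a log10 ratio, Cy5 over Cy3. The deposited series matrix has the same log10 ratio turned to CLA over control (slope 1 on every array, array medians 0.0042, 0.00034, -0.0063 and -0.0068). The authors' deposited table holds a ratio, a signed fold change used as a score, and a p-value, with no test named in the sources used here.

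Intensities were corrected by normexp (offset 50), normalized by loess within each array with control spots at weight 0, and turned to log2 CLA over control in limma 3.58.1 under R 4.3.3. Spots with an outlier flag were left out. Probes well above background in either diet on at least 2 arrays and measured on at least 3 were kept. Each named gene was tested by 1 probe, the brightest, and each unnamed probe was tested on its own. The genes tested are thus 9344 named genes and 10733 unnamed probes, and a gene such as Col6a3 can enter more than once. Of 20868 probes, 8947 were named by RefSeq accession through the GRCm38.p6 gene table, 407 by symbol, 362 by an older symbol, and 11152 stayed unnamed except for listed genes found by description, probes chosen after the files were seen. The model had a dye term and a diet term, with Benjamini-Hochberg adjustment over all 20077 genes and a threshold of 0.05. SE and 95% intervals come from that fit, and 4 arrays limit its precision. The script was tested on simulated data. Each array is on its own slide, and array 2's image was extracted on another day than the other 3.

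The members and lists were chosen with earlier results of these data known. Genes named beside members were any called, and the 2 highest and 2 lowest of each list among those with 1 sign on all 4 arrays as measured. Actg2 and Bgn were named after their values were seen. Promoter windows came from RefSeq tables for 7 of 9 members. Alternatives were 11 other ways of processing and leaving out each array.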

Additional observations from a re-analysis of the deposited data

Results flagged for a closer look

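The array values of 2 lists had 1 array far from the other 3, by the gap to the nearest value over the whole range (Dixon's ratio, against its 95% critical value). About 1 in 20 such groups would pass by chance if their values were like draws, and 26 were examined. The values still hold the dye effect, so a gene that splits by orientation, such as Acta2 with a ratio of 0.135, can hardly pass. For the median of the matrix glycoproteins and proteoglycans the ratio was 0.908, with array 1 at 0.03 and the others at -0.03, -0.04 and -0.03. For the median of the exocrine pancreas markers it was 0.876, with array 4 at 1.36 and the others between -0.08 and 0.10. None of the 9 members passed, and Col1a1, with array 1 at 0.40, came closest at 0.818.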

How the results depend on the processing

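Under 15 alternatives, none of the 9 members passed the test. Of 133 member values under them, 121 kept their sign. That count overstates how far the signs were put to a test. Dropping the dye term, changing the filter on dim probes and taking every probe on its own left each estimate as it was. Such settings could not change a sign, and the series matrix repeated the processed signals. Col3a1 turned to -0.16 with median centring and ranged from -0.0084 to 0.088 when 1 array was left out, below 0 without array 4. Tgfb1 turned to -0.0013 with no background subtraction, to -0.00087 with the dye effect equalised, and ranged from -0.033 to 0.068 when 1 array was left out, below 0 without array 1 or 4 (-0.033 and -0.016). Spp1 turned to -0.0073 with no background subtraction, -0.17 with median centring, -0.024 with scale normalization and -0.021 with the dye effect equalised, and ranged from -0.040 to 0.065 when 1 array was left out, below 0 without array 2 or 3 (-0.028 and -0.040). The member median, 0.11, was 0.026 with no background subtraction, 0.19 with an offset of 16, 0.23 with the scanner's processed signals and 0.23 with the series matrix, and it ranged from 0.065 to 0.12 when 1 array was left out. Among the 119 list genes, median centring called 1, Vtn, and no other alternative called any. Over all genes, 14 were called as reported, 140 with median centring and 57 of 16176 when every channel had to be well above background, which left Timp1 and Tgfb1 untested. No gene was called with no background subtraction, offset 16, processed signals, the series matrix, scale normalization, no dye term or the equalised dye effect, where 3397, 2925, 2741, 2741, 1584, 292 and 1896 genes had an unadjusted p under 0.05. Leaving out arrays 1 to 4 in turn called 40, 2, 79 and 72 genes. The causes were not tested. No paired analysis was possible because the arrays form 1 group of CLA over control ratios, each already a pair, with no number shared between groups. Dim signal limits Timp1 and Tgfb1 most.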
